A study of Rattus norvegicus with 4 samples.

Results

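The hypoxia sensors and targets of the hypoxia-inducible factors (HIF) on the array were examined in the pancreas of rats fed low, adequate or high iron. The set holds 10 genes, Egln1, Egln2, Egln3, Hif1a, Epas1, Vegfa, Vegfb, Adm, Bnip3 and Ankrd37, chosen by symbol, and 9 of them have a probe. Egln1 has none, and its mRNA was not measured. The 9 genes are read by 12 of the 30367 gene probes on the array, with 4 probes for Vegfa and 1 for each of the others.

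The 3 groups were male Sprague-Dawley rats, weanlings at the start, that ate for 3 weeks a diet labelled as 5 ppm iron (deficient, FeD), 35 ppm (adequate, FeA) or 20275 ppm (overload, FeO). The study's methods give a slightly different measured content for the FeA diet than its label. Pancreatic RNA of 6 rats per diet was combined into 1 pool, and the FeD and FeO pools were each hybridised with the FeA pool on 2 arrays with the dyes swapped. The swapped arrays repeat 1 pair of pools and count as 1 replicate, so their difference is technical and the spread among rats was not measured. The diets therefore could not be tested, and all 4 arrays share 1 slide and 1 scan. Both comparisons use the same FeA pool. Between 61.9% and 71.5% of the spots were well above background in a channel, by the criterion of the scanner software.

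Cells sense oxygen through the prolyl hydroxylases Egln1, Egln2 and Egln3, which need iron, oxygen and oxoglutarate to hydroxylate the HIF alpha subunits Hif1a and Epas1. The hydroxylated subunits are bound by the Vhl ubiquitin ligase complex and degraded. When oxygen or iron is scarce the subunits persist, pair with Arnt and switch on genes of angiogenesis (Vegfa, Adm), mitophagy (Bnip3) and glycolysis. The control of Hif1a and Epas1 lies largely at the protein level, which arrays do not read.

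In FeD against FeA, 0 of the 9 genes were at least 1.5-fold higher or lower with the same sign on both arrays. Of the 15755 genes that passed the filter on dim probes, 1.08% were that much higher and 0.679% that much lower. The median log2 ratio of the 9 genes was 0.09 (0.07 on either array), beside 0.01 over all 26541 genes and named transcripts. In FeO against FeA, 1 of the 9 genes was counted as higher, Vegfb, and 0 as lower. Vegfb passed the filter only through FeO, and its FeA channel was not readable on either array. Its bound of at least 1.46-fold includes the offset of 50 added to all signals, which draws log2 ratios of dim probes towards 0. No bound was computed with another offset, so whether Vegfb passes the 1.5-fold line cannot be said. The same rule found 2.38% of 16487 genes higher and 1.35% lower, and the median of the 9 genes was 0.16 (0.04 on array 1 and 0.23 on array 2), beside 0.01 over all genes. In FeO this median is the value of Hif1a, a probe not well above background in either pool, so it is not a readable ratio, and it ran from 0.042 on array 1 alone to 0.294 with processed signals. A count of 1 is too small to set apart from the shares over all genes. On array 1 alone Adm also passed in FeO, for a count of 2. The shares themselves rest on both arrays: on array 2 alone 489 genes were higher and 179 lower in FeD, in place of 170 and 107, and 972 and 434 in FeO, in place of 392 and 223. The filter asked that a probe be well above background on both arrays in at least 1 of the 2 diets, and 7 of the 9 genes passed it in FeD and 8 in FeO. Of those 7, 3 lay above 0 on both arrays and 1 below, beside 25.2% and 21.7% of all passing genes. In FeO 3 of the 8 lay above and 2 below, beside 28.0% and 24.1%. Among those above is Vegfb, which passed only through FeO, so the filter helped to set its place there. The ratios of the swapped arrays differed by a median of 0.225 over the passing probes in FeD and 0.234 in FeO, and 5% of probes differed by more than 0.725 and 0.775.

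**Figure D1:**
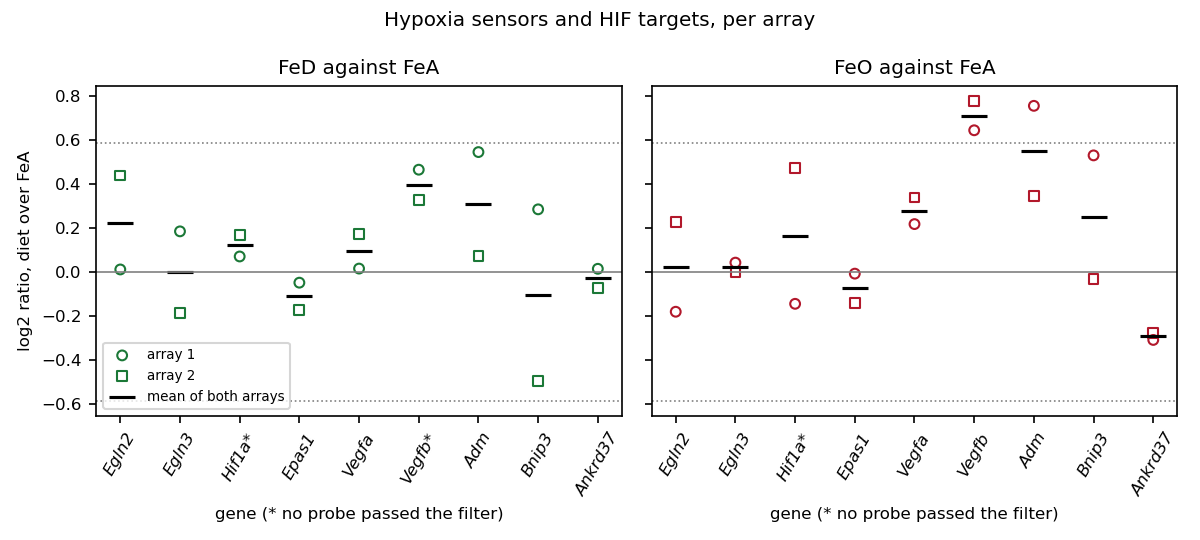
Log2 ratio of each diet pool over the FeA pool for the 9 genes, per array (circles array 1, squares array 2) with the mean of both as a bar; dotted lines mark 1.5-fold. The measured mean of Vegfb in FeO lies beyond the line, with a FeA channel not well above background, and the arrays of Bnip3 lie on opposite sides of 0 in both comparisons.

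Of the sensors, Egln2 gave normalized intensities of 659 (FeD) and 654 (FeA) on array 1 and of 798 and 589 on array 2. Its log2 ratios were 0.01 and 0.44, so the mean of 0.22 rests on 1 array. In FeO the arrays disagreed in sign, at -0.18 and 0.23. Egln3, which HIF itself is known to induce, gave 0.18 on array 1 and -0.19 on array 2 in FeD, and 0.04 and 0.00 for FeO. Its mean lay within 0.02 of 0 in both comparisons, and its sign changed with the scaling.

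Hif1a was dim. It was well above background on 1 of 2 arrays in FeD and on none in FeA or FeO, with intensities between 61.8 and 93.4. Its log2 ratios in FeD were 0.07 and 0.17, against a FeA channel that was not readable, and no fold is given for either comparison. Epas1, the alpha subunit typical of endothelial cells, passed the filter. Its log2 ratios were -0.05 and -0.17 in FeD and -0.01 and -0.14 in FeO, with means of -0.11 and -0.07. Its arrays differed by 0.124 in FeD and 0.131 in FeO, and neither mean reached 1.5-fold.

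Vegfb, a ligand of the receptor Flt1 and of neuropilin, was the gene counted in FeO, where its intensities were 109 and 112 on the 2 arrays, and the FeA pool gave 69.95 and 65.1 on those arrays. Neither FeA channel was well above background. The measured log2 ratio was 0.71 (0.64 and 0.78), but over an unreadable FeA channel only a bound can be given, at least 1.46-fold. That bound and the intensities include the offset of 50, so it does not settle whether Vegfb passes 1.5-fold. In FeD the intensities were 94.3 and 85.02 over 68.4 and 67.8 in FeA, a log2 ratio of 0.40 (0.46 and 0.33) and a bound of at least 1.20-fold, with FeD well above background on 1 array. That ratio was 1.20 with an offset of 0 and 2.42 with the processed signals. Vegfb passed the filter in FeO only through the brighter diet, and its ratio and call changed with how dim signals were treated. Without background subtraction the FeO ratio was 0.56, under the 1.5-fold line, with an offset of 0 it was 1.92, with processed signals 3.42, and with the filter set to both diets Vegfb was not counted.

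Adm, the vasodilator peptide adrenomedullin, is printed in 10 spots. Its intensities in FeO were 489 and 392 beside 290 and 308 in FeA. The log2 ratios were 0.75 and 0.35, a mean of 0.55 or 1.46-fold, just under the line, and the spots of an array varied by an SD of 0.13 and 0.09. In FeD the ratios were 0.54 and 0.07, and the arrays differed by 0.47. Adm passed the 1.5-fold line in FeO under 4 of 9 other settings. Of these 9, the filters and the brightest probe cannot alter 1 probe that was well above background in both pools.

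Vegfa, the main angiogenic ligand of Kdr, has 4 probes and 3 passed the filter. Their mean log2 ratios in FeO were 0.37, 0.24 and 0.23 (gene mean 0.28, 0.22 and 0.34 on the arrays), and in FeD 0.17, 0.17 and -0.06 (gene mean 0.09). The brightest probe read 1092 and 1154 in FeO beside 939 and 810 in FeA. The arrays of the second probe differed by 0.52, and those of the third by 0.59, more than their mean ratios. The probe that did not pass gave 0.15 in FeO and 0.07 in FeD.

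Bnip3, a mitophagy receptor of the outer mitochondrial membrane, gave arrays of opposite sign in both comparisons. Its ratio in FeD was 0.28 on array 1 and -0.50 on array 2, and in FeO 0.53 and -0.03, so no direction can be given. Ankrd37, an ankyrin-repeat protein induced in hypoxia, had the lowest ratio of the set in FeO. It read 231 and 236 in FeO and 286 and 286 in FeA. The log2 ratios of -0.31 and -0.28 differed by 0.03, and the mean of -0.29 corresponds to a 1.22-fold lower level, short of 1.5-fold. In FeD its ratios were 0.01 and -0.07.

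**Figure D2:**
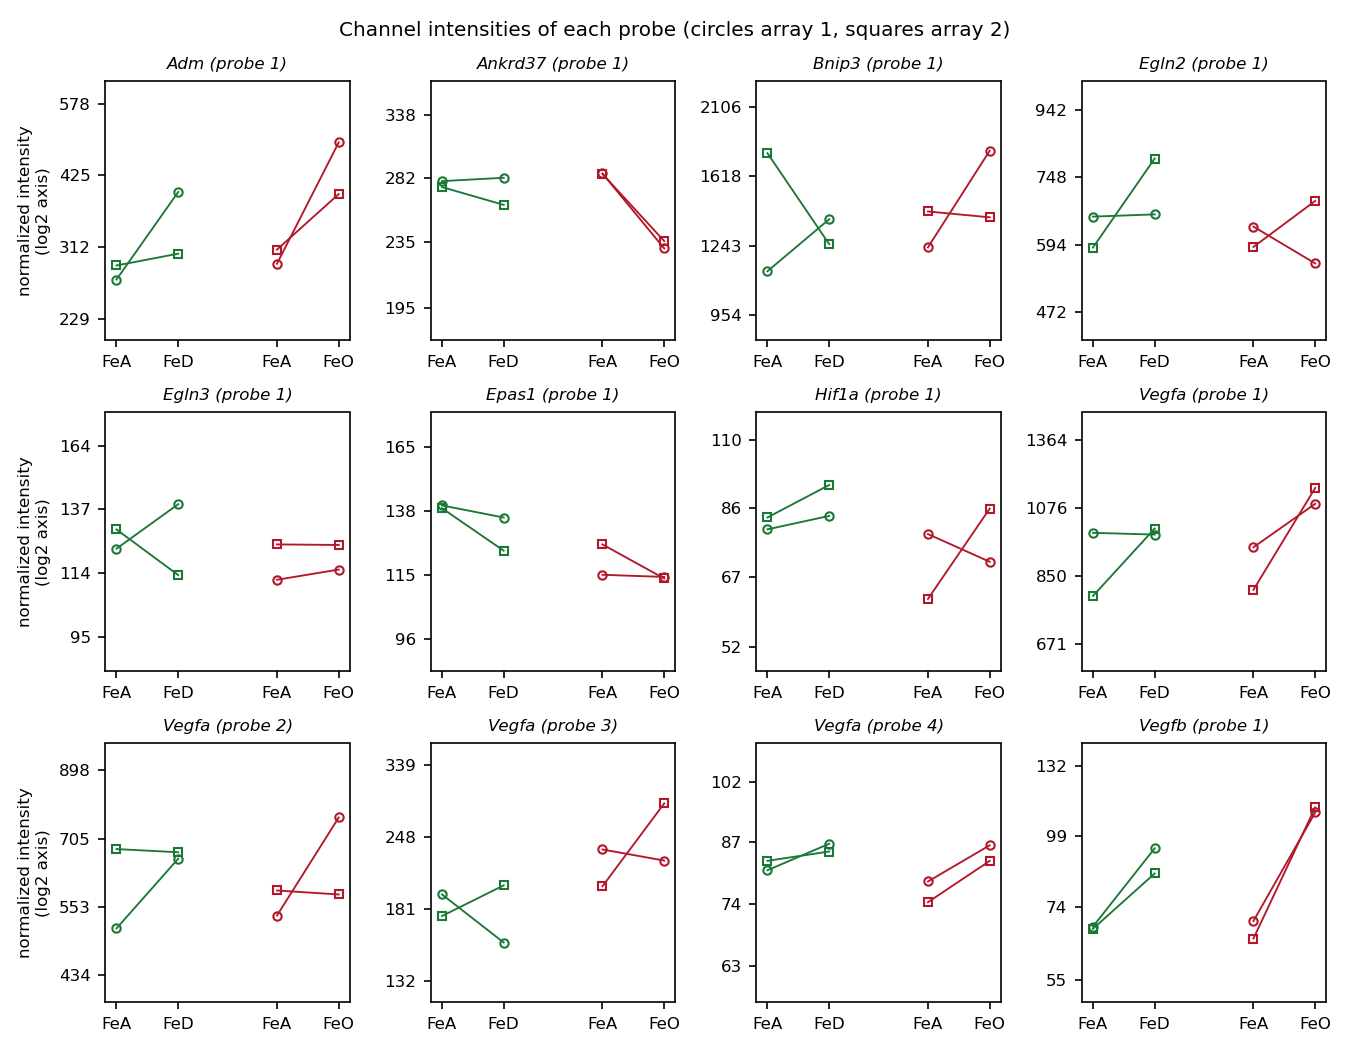
Normalized channel intensities of the 12 probes (log axis, scaled per probe), each line joining the FeA and diet channel of 1 array. Lines of both arrays run the same way for Vegfb, Adm and Ankrd37 in FeO and cross for Bnip3 in FeD.

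The promoters of these genes were read for the core of the hypoxia response element, ACGTG, and for its variant GCGTG, on both strands, from 250 bases before to 50 bases after the start site (RefSeq, build GRCr8). All 10 genes have an entry, and Vegfa has 2. Of 33469 promoters of this length, 19.3% hold ACGTG, 29.7% hold GCGTG and 41.6% hold either, so a match is common. Matches were found for Egln1, Hif1a, Vegfb, Bnip3 and Ankrd37 and not for the other members in this window. The 3 sequences shown are those of the gene with the highest measured ratio in FeO, of the lowest gene in FeO and of Bnip3, with matches in capitals. They lie at chr1:213607103-213607402 on the minus strand (Vegfb), chr16:53001257-53001556 on the plus strand (Ankrd37) and chr1:203154913-203155212 on the minus strand (Bnip3). A match describes the letters only.
Vegfb: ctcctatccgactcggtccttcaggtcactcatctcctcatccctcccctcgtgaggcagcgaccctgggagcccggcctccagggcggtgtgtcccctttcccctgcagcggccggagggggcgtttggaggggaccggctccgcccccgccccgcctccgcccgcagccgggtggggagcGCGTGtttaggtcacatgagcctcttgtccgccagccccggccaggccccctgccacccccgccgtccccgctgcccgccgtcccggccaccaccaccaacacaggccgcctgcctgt
Ankrd37: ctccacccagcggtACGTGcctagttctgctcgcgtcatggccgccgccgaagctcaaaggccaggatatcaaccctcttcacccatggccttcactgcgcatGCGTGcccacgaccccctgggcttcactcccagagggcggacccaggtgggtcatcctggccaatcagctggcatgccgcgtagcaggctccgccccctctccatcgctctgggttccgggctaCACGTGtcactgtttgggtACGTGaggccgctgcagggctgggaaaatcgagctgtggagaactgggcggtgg
Bnip3: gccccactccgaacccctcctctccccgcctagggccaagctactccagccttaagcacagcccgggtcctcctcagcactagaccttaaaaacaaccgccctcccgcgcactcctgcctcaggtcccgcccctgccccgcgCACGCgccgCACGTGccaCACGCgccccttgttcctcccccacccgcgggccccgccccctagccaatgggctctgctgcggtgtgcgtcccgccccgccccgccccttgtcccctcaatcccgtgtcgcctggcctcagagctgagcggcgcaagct
Ankrd37 holds 4 matches of ACGTG and 1 of GCGTG, Bnip3 2 of each, and Vegfb 1 of GCGTG. A palindromic CACGTG counts as 2 overlapping matches, 1 per strand.

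The rest of the pathway was followed in 4 lists of 74 other genes, of which 73 have a probe. The filter was passed by 52 of them in FeD and 59 in FeO, and only those could be called. In FeD against FeA, 0 of the 73 were at least 1.5-fold higher and 0 were lower (1.08% and 0.679% of all passing genes), with a median log2 ratio of 0.04. In FeO, 2 were higher and 2 lower (2.38% and 1.35% of all passing genes), with a median of 0.05. These counts move with the array: on array 2 alone 2 were higher in FeD, and 9 were higher and 4 lower in FeO, and on array 1 alone 1 was higher in FeD, and 3 were higher and 1 lower in FeO. They also move with the scaling and the background: in FeO 5 were higher and 0 lower with median centring, 9 and 4 with an offset of 0, and 8 and 4 with processed signals.

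Of the 14 genes of the HIF machinery, Vhl, the substrate receptor of the ligase, was lower in FeO. Its intensities were 1194 and 1035 in FeO and 1544 and 1910 in FeA, a log2 ratio of -0.63 (-0.37 and -0.88). In FeD the ratio was -0.47 (-0.36 and -0.58). The FeO call was lost with median centring and on array 1 alone. Arnt and Hif1an, the asparaginyl hydroxylase, did not pass the filter, so their ratios are not given. Of the passing genes of the list, 1 of 9 lay above 0 on both arrays and 4 below in FeD. Over all passing genes these shares were 25.2% and 21.7%. In FeO 3 of 12 lay above and 2 below, beside 28.0% and 24.1%. Among those above in FeO, P4htm passed the filter only through FeO. The medians of the list were -0.03 in FeD and 0.02 in FeO.

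Of the 19 genes of glycolysis and glucose uptake, Aldoa, an aldolase, was higher in FeO. It read 2498 and 3511 in FeO beside 1950 and 1501 in FeA, a log2 ratio of 0.79 whose arrays (0.36 and 1.23) differed by 0.87. On array 1 alone it was not called. The median of the list was 0.24 in FeO (0.12 on array 1 and 0.30 on array 2) and 0.06 in FeD. Of the 17 genes that passed the filter in FeO, 9 lay above 0 on both arrays and 2 below, beside the shares of all passing genes given with the set. In FeD these were 3 and 1 of 16. Among its defining genes, which do not stand for the whole list, log2 ratios in FeO were 0.24 for the glucose transporter Slc2a1, -0.08 for Pgk1 and -0.06 for Ldha, and in FeD of 0.08, 0.04 and -0.15. Only Slc2a1 and Pgk1 in FeO and Ldha in FeD had the same sign on both arrays. The signs of Pgk1 (both diets) and Ldha (FeO) turned with median centring.

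Of the 22 other HIF targets with a probe, 17 passed the filter in each comparison, and none of these 17 passed the line, beside the shares of all passing genes given above. Tfrc, the transferrin receptor, whose mRNA is stabilised when iron is low, ran in opposite directions. Its log2 ratio was 0.38 in FeD (0.31 and 0.45) and -0.58 in FeO (-0.52 and -0.64), just short of 1.5-fold, and the difference between the comparisons was not tested. Its second probe was too dim to read in any of the 3 pools. With no filter, which averages that probe in, the ratios of Tfrc were 0.15 in FeD and -0.27 in FeO. Ndrg1 had -0.58 in FeO (-0.81 and -0.35), and in FeD its arrays disagreed in sign (-0.38 and 0.09). In FeO both Tfrc and Ndrg1 were called lower under 3 of 9 other settings. The highest of the list in FeO was P4ha1 at 0.52 (0.42 and 0.62), with -0.17 in FeD. The genes named here do not stand for the whole list. Ddit4, a stress-induced inhibitor of mTOR signalling, had 0.49 in FeD (0.25 and 0.73) and 0.36 in FeO (0.18 and 0.54). It was called higher in FeD under 4 of 9 other settings, among them the brightest probe at 0.64, and in FeO under none. On both arrays 7 of the 17 lay above 0 and 3 below in FeD, beside 25.2% and 21.7% of all passing genes. In FeO these were 6 and 4, beside 28.0% and 24.1%. Among those above in FeO is Lox, whose FeA channel was not readable. It passed only through FeO, so the filter helped to set its place there. The medians of the list were 0.05 in FeD and 0.05 in FeO.

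Of the 18 VEGF and adrenomedullin ligands and receptors, Kdr, the main receptor of Vegfa, was higher in FeO. It read 1416 and 1251 in FeO and 845 and 791 in FeA, a log2 ratio of 0.70 (0.75 and 0.66), and passed 1.5-fold under the 9 other settings run for each gene, of which the filters and the brightest probe cannot alter a single bright probe. It did not pass at 2-fold. Kdr passed the methods' t-test before adjustment but not after it, and did not pass limma. These tests see only repeats of 1 pair of pools, so they cannot decide on the diet. In FeD the ratio was 0.40 (0.46 and 0.34). Vegfc, a lymphangiogenic ligand, was lower in FeO at -0.59 (-0.29 and -0.90), and was not called without background subtraction, with median centring or on array 1 alone. For Flt1 the FeA channel was not readable on any array, and it did not pass the filter in FeD. In FeO its log2 ratio was 0.27 (0.10 and 0.44), with a bound of at least 1.2-fold, and 0.63 with an offset of 0 and 1.43 with processed signals, where it passed the line. Of the 10 passing genes in FeD 5 lay above 0 on both arrays and 1 below, beside 25.2% and 21.7% of all passing genes. Of the 13 in FeO these were 9 and 2, beside 28.0% and 24.1%. Among those above in FeO, Flt1, Angpt2, Nrp1 and Apln passed the filter only through FeO, where they were higher. The filter thus helped to set this count, and nothing is drawn from it. The medians of the whole list, dim genes included, were 0.02 in FeD and 0.08 in FeO.

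**Figure D3:**
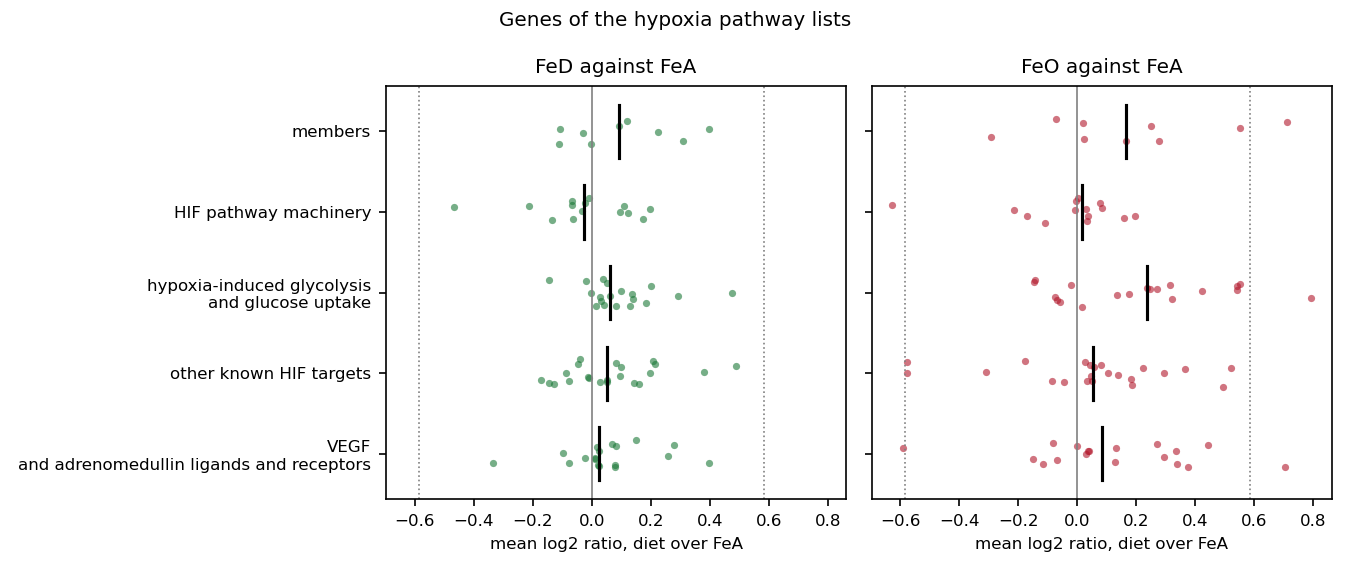
Mean log2 ratio of each gene (points, spread vertically for visibility) in the set and the 4 pathway lists, with the median of a list as a black bar and 1.5-fold as dotted lines. In FeO only Vhl and Vegfc lie left of the lines, and only Vegfb, Aldoa and Kdr right of them.

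Whole pancreas holds many cell types, and fewer cells of a type and less RNA per cell cannot be told apart in such samples. In FeO, 6 of 8 adipocyte markers were at least 1.5-fold higher, with a median log2 ratio of 1.69. Their summed intensity was 39650 and 38690 in FeO beside 12340 and 11300 in FeA, and Cfd was the brightest. The endothelial markers, 12 genes with Plvap the brightest, included none past the line. Of the 11 that passed the filter 8 lay above 0 on both arrays, beside 28.0% of all passing genes, with a list median of 0.33 (0.18 and 0.35) and a sum of 11820 and 11290 beside 9702 and 8386. The part of these cells in the ratios of Vegfb, Kdr and Adm in FeO was not tested. Islet markers had a median of -0.77, with 4 of 7 lower and 1, Gcg, higher. Acinar markers had a median of -0.32, with 2 of 12 lower, but Cpa1, Cela2a, Prss1 and Clps have no value on array 2 and could not be called, and they enter the median by array 1. The acinar markers, the defining genes of the tissue, were all well above background. The medians of 4 other lists differed in sign between the 2 arrays in FeO. They were -0.03 and 0.44 for erythroid, 0.19 and -0.40 for immune, -0.21 and 0.40 for smooth muscle, and -0.06 and 0.08 for duct markers, with 1 immune and 2 duct markers called lower.

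In FeD 3 of 6 erythroid markers were at least 1.5-fold higher, with a median of 0.59 (0.59 and 0.66 on the arrays) and a sum of 50840 and 57960 beside 38890 and 35060 in FeA, where Hba-a2 was the brightest. Of the immune markers 3 of 7 were higher, with medians of 0.51 and 0.33 on the arrays. Among the acinar markers 1 of 12 was called higher, Ctrb1 at 0.60, while 3 lay above 0 on both arrays and 2 below. No endothelial, adipocyte, islet, duct or smooth muscle marker was called in FeD. Medians on array 1 and array 2 were -0.01 and 0.23 for endothelial, -0.11 and -0.03 for adipocyte, 0.02 and 0.02 for acinar, -0.04 and -0.25 for islet, -0.07 and 0.15 for duct, and -0.77 and -0.09 for smooth muscle markers. Of the 11 endothelial markers that passed, 5 lay above 0 on both arrays and 0 below, beside 25.2% and 21.7% of all passing genes. The median of that list was 0.16, and its part in the ratio of Kdr in FeD was not tested. Markers of gut epithelium were lower in both comparisons, 5 of 6 in each, with medians of -1.86 in FeD and -2.10 in FeO and a sum in FeA of 4260 to 4370 beside 1413 and 1512 in FeD and 1040 and 1086 in FeO. As FeA is the shared pool, these 2 values are not independent, and their part in the ratios of the hypoxia genes was not tested.

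**Figure D4:**
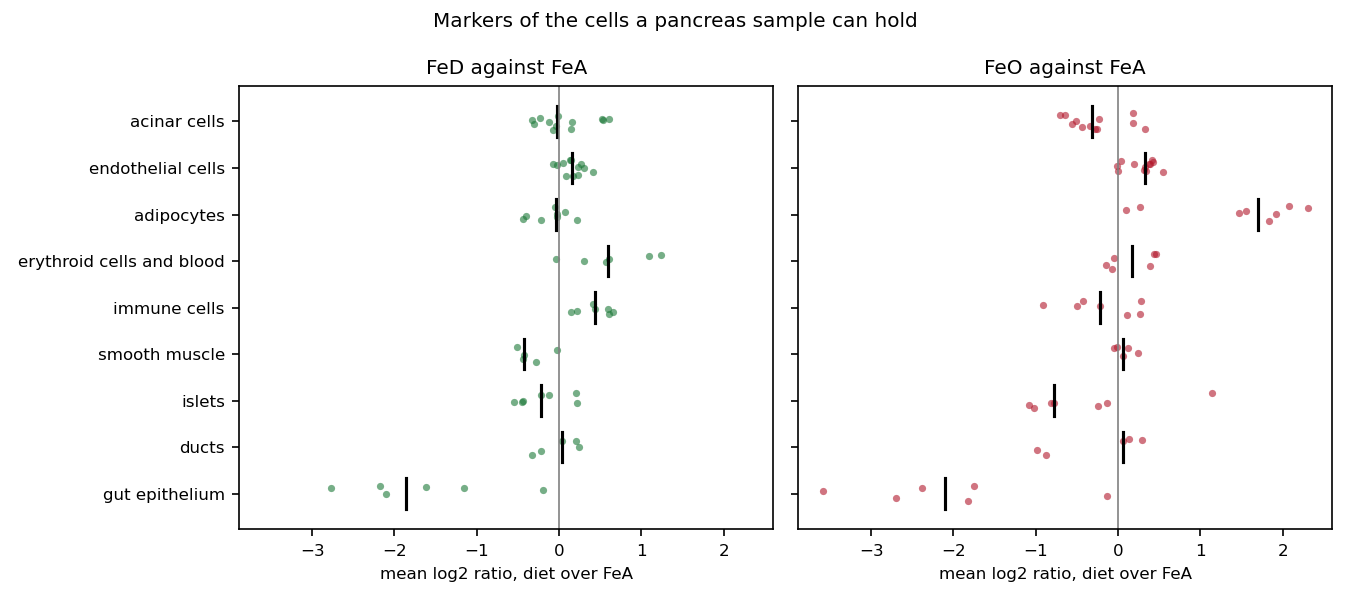
Mean log2 ratio of each marker gene (points, spread vertically for visibility) by cell type, with the median of a list as a black bar. Adipocyte markers stand to the right in FeO and erythroid markers in FeD, and gut markers stand to the left in both.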

How the data were processed

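The authors deposited intensity values of 4 two-colour arrays, read by Feature Extraction (version 10.1.1.1), of which the median spot and background signals were used here. The authors' deposited tables of fold changes, p-values and q-values served only to pair probes with symbols.

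Log2 ratios of diet over FeA came from limma 3.58.1 under R 4.3.3 (normexp with an offset of 50, loess within arrays). Outlier spots were left out, spots of a probe averaged, swapped arrays turned and both arrays averaged. A probe was well above background when over 50% of its spots were. Genes take the mean of their passing probes, or of all probes where none passed. Bounds set the brighter pool against the dim pool, per channel after loess and Aquantile. The dim pool was taken at its own signal or, if higher, at the lowest one well above background. These levels, like the printed intensities, include the offset of 50. Of 30367 probes, 18004 were named by accession (RefSeq, GRCr8) and 4945 by the tables. Summaries used Python with pandas. Steps were tested on simulated data.

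Named genes were all members, pathway genes past 1.5-fold and defining genes of each list. Others are named only where they bear on a count or stand highest or brightest in a list. Alternatives covered the background correction, scaling, filter, probe choice, fold, the methods' t-test, limma and each array left out. The members and lists were chosen with earlier results of these data known.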

Additional observations from a re-analysis of the deposited data

How the results depend on the processing

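The filter in both diets ended the call of Vegfb in FeO and left its ratio as it was. For a gene with 1 probe, all but Vegfa here, the 2 filter settings and the brightest probe return the main ratio by construction. Under the others direction was kept by Adm, Vegfa and Ankrd37 (FeO), and by Egln2 (FeD) and Epas1 with array values as near 0 as 0.01. Vegfb and Hif1a (FeD) kept it over an unreadable FeA channel, whereas Bnip3, Egln3, Egln2 (FeO), Hif1a (FeO) and Ankrd37 (FeD) changed sign in 1 to 3 settings. For Vegfb in FeO the log2 ratio ran from 0.56 to 3.42. The cause of the changes listed here was not tested, apart from stricter folds and tests, which call fewer genes by construction. No paired analysis was possible because each diet is 1 pool.

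The number of members higher in FeO was 2 with an offset of 0, the processed signals or median centring, 0 without background subtraction, with the filter in both diets, at 2-fold, at a log2 ratio of 2, and with limma or the methods' t-test once adjusted, and 1 to 2 with an array left out. Over the other pathway genes in FeD, the number higher was 1 with an offset of 0 or the brightest probe, 2 with processed signals and 1 to 2 with an array left out, in place of 0. In FeO the number higher was 9 with an offset of 0, 8 with processed signals, 5 with median centring, 1 with the methods' t-test, and 0 at 2-fold, at a log2 ratio of 2 and with either adjusted test, in place of 2, and 3 to 9 with an array left out. The number lower was 4 with an offset of 0 or processed signals, 1 without background subtraction, and 0 with median centring, at the stricter folds and with all 3 tests, in place of 2, and 1 to 4 with an array left out.

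The median of the members in FeD was 0.087 with an offset of 0 or no filter, 0.101 without background subtraction, 0.099 with processed signals, 0.058 with median centring and 0.12 with the brightest probe, and 0.070 to 0.073 with an array left out. In FeO, in place of 0.163, it was 0.294 with processed signals, 0.239 with an offset of 0, 0.074 with median centring and 0.065 without background subtraction, and 0.042 to 0.226 with an array left out. The median of the other pathway genes in FeD was 0.066 with an offset of 0 and 0.003 with median centring. In FeO it was 0.14 with an offset of 0, 0.063 without background subtraction, 0.059 with the brightest probe and 0.17 with processed signals, and 0.055 to 0.062 with an array left out. Over all genes in FeO, 392 were higher and 223 lower, and with an offset of 0 these were 722 and 487, and with processed signals 1029 and 726. In FeD, 170 and 107 became 379 and 241, and 538 and 397. Without array 1 they were 489 and 179 in FeD and 972 and 434 in FeO, and without array 2 they were 250 and 184, and 382 and 320.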
